A study of Mus musculus with 40 samples.

Results

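Histone marks were examined at 9 homeobox genes. Dlx1, Dlx2, Dlx5, Dlx6, Gsx1, Gsx2 and Nkx2-1 pattern the ventral forebrain, and Dlx3 and Dlx4 are relatives of these Dlx genes. They were chosen by name, all 9 were found among the 55450 annotated mouse genes (21951 of them protein-coding), and each was followed in chromatin immunoprecipitation with sequencing (ChIP-seq) of H3K27me3 and H3K4me3 in 20 libraries. The libraries came from oligodendrocyte precursor cell (OPC) cultures of the brainstem and the dorsal telencephalon of control (Ctl) and H3.3 K27M mice. The Dlx genes lie as 3 pairs of neighbours that are transcribed towards each other, and the marks were also measured across each pair.

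Dlx genes encode homeodomain transcription factors. Dlx1, Dlx2, Dlx5 and Dlx6 act in the progenitors and migrating GABAergic interneurons of the ganglionic eminences, the ventral part of the embryonic telencephalon, and Dlx3 and Dlx4 are better known from ectodermal appendages and placenta. Gsx2 specifies progenitors of the lateral ganglionic eminence with its relative Gsx1, and Nkx2-1 specifies the medial ganglionic eminence. Many forebrain OPCs descend from these ventral progenitors, and Dlx1 and Dlx2 are known to restrain the oligodendrocyte fate in favour of interneurons. H3K27me3 is deposited by the Polycomb complex PRC2 over silent developmental genes, often as broad domains, whereas H3K4me3 marks active promoters and those poised for activity. A promoter with both marks is called bivalent. Histone H3.3 K27M carries methionine in place of lysine 27 and inhibits PRC2.

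K27M cultures were from mice with a conditional H3-3a LSL-K27M knock-in allele and the Cre driver that the labels spell AMGFAP-Cre (hGFAP-Cre in the study's methods), which recombines in radial glia-derived neural lineages, and Ctl cultures were from littermates. Brains were taken at postnatal day 5 to 7, and tissue was pooled by region and genotype, so each culture represents several animals. The telencephalic tissue was dorsal (cortex, corpus callosum and hippocampus). It excluded the ventral regions in which these genes, apart from Dlx3 and Dlx4, are active in the embryo. Endothelial cells and microglia were depleted on a coated dish, PDGFRa-positive cells were immunopanned, and the OPCs were expanded with forskolin, CNTF, neurotrophin-3 and PDGF and were not differentiated. For each mark there were 2 brainstem-derived cultures (59 and 61) and 3 telencephalon-derived cultures (59, 60 and 61) of each genotype, which gave 5 matched Ctl and K27M pairs.

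Peaks had been called in each library against its own input, and the read depth of the libraries is unknown from the peak lists. H3K27me3 lists held 4739 to 64808 peaks and H3K4me3 lists 20961 to 31200. The H3K27me3 list was shorter in K27M in every matched pair. In brainstem-derived cultures 59 and 61 it held 54227 and 25632 peaks in Ctl and 7731 and 12738 in K27M. In telencephalon-derived cultures 59, 60 and 61 it held 12715, 49615 and 64808 in Ctl and 4739, 15753 and 8284 in K27M. The OPC label was checked with 7 markers (Pdgfra, Cspg4, Olig1, Olig2, Sox10, Ptprz1 and Gpr17): all 7 promoters carried H3K4me3 and none carried H3K27me3 in the 10 libraries of each mark. Among 4 microglial markers Cx3cr1, Csf1r and Aif1 had no H3K4me3 peak in any library and P2ry12 had one in 8, and among 3 endothelial markers Pecam1 had none, Cldn5 one in 5 libraries and Flt1 in all 10. Of 3 astrocyte markers, Gfap and Aldh1l1 had one in 6 libraries each and Aqp4 in 1, and 6 of 9 neuronal markers, among them Gad1, Gad2 and Npy, had one in all 10. Emx2, which marks the telencephalon, had an H3K4me3 peak in 3 of 3 telencephalon-derived cultures of each genotype, in 0 of 2 brainstem-derived K27M cultures and in 2 of 2 brainstem-derived Ctl cultures. Hoxa2, a hindbrain gene, had one in all 4 brainstem-derived cultures and in 2 of 3 telencephalon-derived Ctl cultures. The part of other cells in these marks was not tested.

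The promoter sequences of the members in the RefSeq table (5 of 9, from GRCm38.p6, the same assembly as mm10) are shown because they differ in CpG content and in the marks that cover them. Each spans 250 bases before to 50 bases after the transcript start and is written 5′ to 3′ on the strand of the gene, with CG dinucleotides in capitals.
Dlx1 promoter, chr2:71529195-71529494, plus strand: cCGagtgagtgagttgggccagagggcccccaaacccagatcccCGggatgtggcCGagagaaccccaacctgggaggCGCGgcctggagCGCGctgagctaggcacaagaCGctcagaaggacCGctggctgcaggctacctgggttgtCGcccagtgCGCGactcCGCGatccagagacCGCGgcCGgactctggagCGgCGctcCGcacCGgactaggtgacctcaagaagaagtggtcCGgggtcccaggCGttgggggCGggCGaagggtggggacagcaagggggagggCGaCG
Dlx2 promoter, chr2:71546705-71547004, minus strand: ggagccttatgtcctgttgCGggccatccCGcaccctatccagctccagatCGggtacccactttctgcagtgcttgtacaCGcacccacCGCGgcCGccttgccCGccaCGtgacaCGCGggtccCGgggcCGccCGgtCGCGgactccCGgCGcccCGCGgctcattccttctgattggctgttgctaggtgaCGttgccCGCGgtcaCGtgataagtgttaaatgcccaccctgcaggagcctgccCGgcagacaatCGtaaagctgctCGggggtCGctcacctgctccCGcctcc
Gsx1 promoter, chr5:147188446-147188745, plus strand: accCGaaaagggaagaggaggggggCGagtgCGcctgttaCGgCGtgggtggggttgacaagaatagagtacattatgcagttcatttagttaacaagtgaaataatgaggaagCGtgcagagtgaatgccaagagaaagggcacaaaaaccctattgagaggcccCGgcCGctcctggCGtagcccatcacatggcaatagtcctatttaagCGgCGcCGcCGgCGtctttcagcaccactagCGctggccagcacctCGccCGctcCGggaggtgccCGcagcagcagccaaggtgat
Gsx2 promoter, chr5:75075351-75075650, plus strand: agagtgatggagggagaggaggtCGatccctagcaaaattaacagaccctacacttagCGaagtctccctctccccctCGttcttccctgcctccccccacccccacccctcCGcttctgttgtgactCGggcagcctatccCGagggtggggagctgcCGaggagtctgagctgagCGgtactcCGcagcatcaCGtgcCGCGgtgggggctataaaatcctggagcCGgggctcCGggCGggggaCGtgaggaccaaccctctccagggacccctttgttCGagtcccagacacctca
Nkx2-1 promoter, chr12:56536859-56537158, minus strand: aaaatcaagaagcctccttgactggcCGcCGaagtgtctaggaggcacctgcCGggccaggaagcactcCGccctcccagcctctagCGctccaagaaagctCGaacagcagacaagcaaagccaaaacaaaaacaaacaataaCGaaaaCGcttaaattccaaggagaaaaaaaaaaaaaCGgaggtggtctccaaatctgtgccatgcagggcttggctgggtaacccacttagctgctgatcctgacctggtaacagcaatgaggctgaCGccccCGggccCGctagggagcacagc

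The window of Dlx2 held 29 CG dinucleotides and that of Dlx1 27, against a median of 7 over the 32851 windows in the table. Gsx1 had 19, Gsx2 17 and Nkx2-1 12, and 12.9% (Dlx2), 15.5% (Dlx1), 28.1% (Gsx1), 31.4% (Gsx2) and 39.6% (Nkx2-1) of all windows held at least as many. The motif TAATTA, a core site of many homeodomain proteins that reads the same on both strands, was in none of these 5 windows and in 5.29% of all windows. H3K27me3 peaks covered the whole window of Dlx1 and of Nkx2-1 in 10 of 10 libraries, that of Dlx2 in 9, that of Gsx2 in 8 and that of Gsx1 in 0. H3K4me3 peaks covered the whole Gsx1 window in 10 of 10 libraries, the Dlx2 window in 9, the Dlx1 window in 7 and the Gsx2 window in 5, and did not reach the Nkx2-1 window in any library. Of the sequences shown, that of Nkx2-1, with the fewest CG dinucleotides, was thus the one under H3K27me3 alone, and that of Gsx1, with an intermediate number, the one under H3K4me3 alone.

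**Figure D1:**
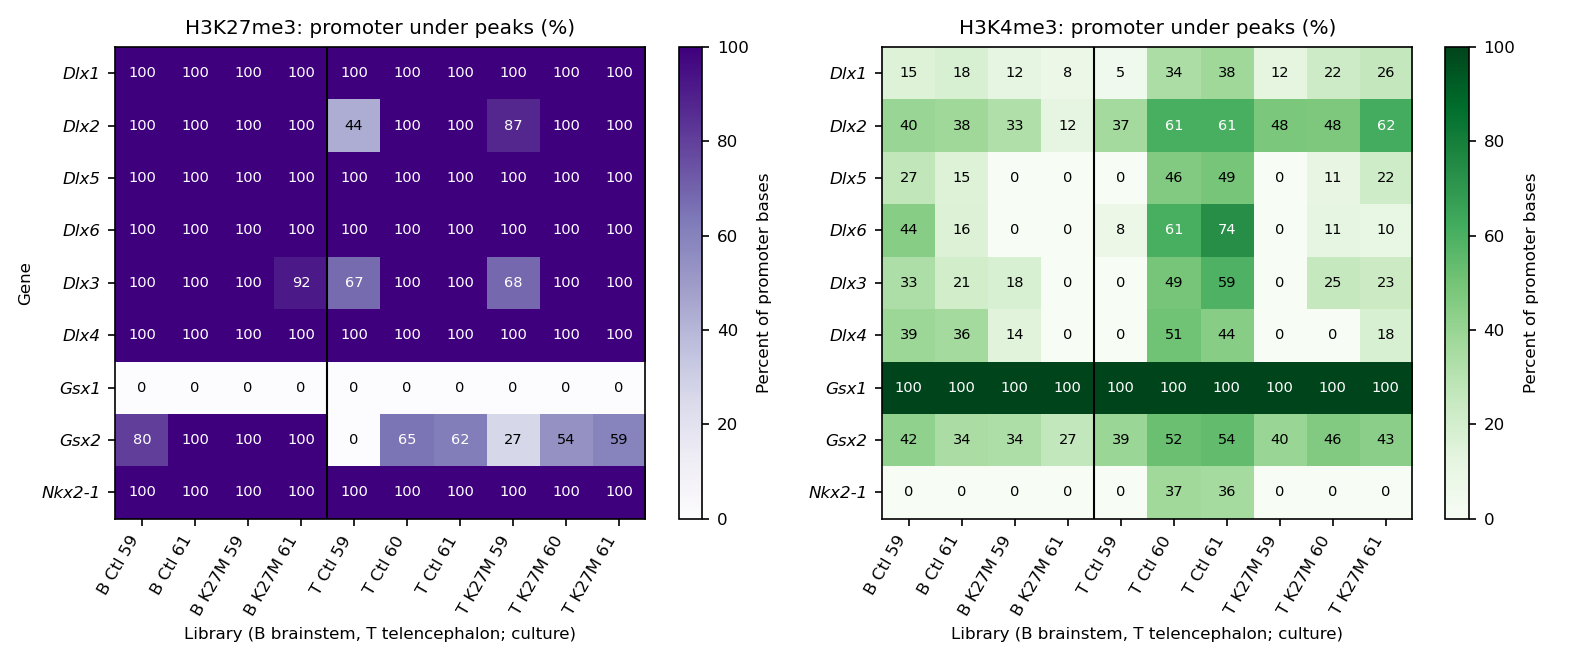
Percent of each promoter lying under peaks (colour and number) for the 9 genes in rows and the 10 libraries of each mark in columns, grouped by tissue and genotype. H3K27me3 is at 100% in every library for Dlx1, Dlx4, Dlx5, Dlx6 and Nkx2-1 and at 0 for Gsx1, whereas H3K4me3 is at 100% for Gsx1 and varies between libraries for the others.

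To ask which of these genes lay under Polycomb chromatin, the promoters of all annotated transcripts of a gene (2000 bp upstream to 1000 bp downstream of each start) were joined, and the percent of their bases under peaks was taken as promoter coverage. In all, 7 of the 9 members (Dlx1 to Dlx6 and Nkx2-1) had an H3K27me3 peak in all 5 Ctl cultures, as did 9.09% of protein-coding genes. All 7 also had one in all 5 K27M cultures, which held for 63.7% of the 1996 genes with a peak in every Ctl culture. Promoters of 5 members, Dlx1, Dlx4, Dlx5, Dlx6 and Nkx2-1, were covered over their whole length in all 10 libraries, which was the case for 0.929% of protein-coding genes. Gsx1 had no H3K27me3 peak in any library. Gsx2 had one in 9 of 10 libraries.

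The 2 remaining Dlx genes were covered over their whole length in most libraries. Dlx2 was covered at 100% in 8 libraries, at 43.7% in Ctl telencephalon-derived culture 59 and at 87.2% in the matched K27M culture. Dlx3 was covered at 100% in 7 libraries, at 67.4% and 68.3% in the Ctl and K27M telencephalon-derived cultures 59 and at 91.7% in K27M brainstem-derived culture 61. The incomplete Dlx2 promoters were thus both in telencephalon-derived cultures 59, whose H3K27me3 lists held 12715 (Ctl) and 4739 (K27M) peaks, the fewest of their genotype and tissue. Whether peak number set these values was not tested. Dlx1, Dlx4, Dlx5, Dlx6 and Nkx2-1 were at 100% and Gsx1 at 0 in every library of both genotypes. For these genes coverage stood at its limit, so a test of K27M against Ctl could not show a change in the mark. At Dlx2 only 1 pair differed, and at Dlx3 1 pair was lower and 1 higher in K27M, with the other pairs equal. The test could not decide there either. Gsx2 was lower in 2 pairs, higher in 2 and equal in 1, and its difference lay within the spread between pairs (two-sided exact sign-flip test, p = 0.5). The smallest p that 5 pairs allow is 0.0625, and it is larger where pairs are equal. The differences were 0 points for Dlx1, Dlx4, Dlx5, Dlx6, Gsx1 and Nkx2-1, 8.69 ± 19.4 points for Dlx2, −1.46 ± 3.83 for Dlx3 and 6.62 ± 15.8 for Gsx2 (K27M minus Ctl, mean ± SD, n = 5 pairs).

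Peak strength was compared next. Fold enrichment is the ChIP signal of a peak over the input of the same library, averaged over a broad H3K27me3 peak. The Drosophila chromatin added before ChIP was not used in these peak calls, so a higher ratio in a K27M library states how peaks stood above that library's own background and not the absolute amount of the mark. Dlx5 and Dlx6 share 1 broad peak. Its fold enrichment was 9.54 and 9.74 in Ctl brainstem-derived cultures 59 and 61 and 29.7 and 35.9 in the matched K27M cultures. In telencephalon-derived cultures 59, 60 and 61 it was 5.42, 17.8 and 9.66 in Ctl and 11.0, 26.5 and 33.7 in K27M. The K27M value was the higher in each of the 5 pairs, by 1.38 ± 0.56 on the log2 scale (mean ± SD), although the ranges of the genotypes overlapped in the telencephalon (two-sided exact sign-flip test, p = 0.0625, the smallest possible).

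The peak that Dlx1 and Dlx2 share gave 9.44 and 9.08 in Ctl and 26.4 and 33.1 in K27M brainstem-derived cultures, and 3.70, 14.4 and 10.4 in Ctl and 6.54, 22.7 and 24.0 in K27M telencephalon-derived cultures. Nkx2-1 gave 10.1 and 7.24 in Ctl and 24.8 and 30.5 in K27M in the brainstem, and 5.42, 11.7 and 8.31 in Ctl and 11.0, 24.6 and 27.7 in K27M in the telencephalon. In the brainstem-derived cultures every K27M value of these peaks lay above every Ctl value, and in the telencephalon-derived cultures the values of culture 59 were the lowest of both genotypes. The log2 difference between K27M and Ctl was 1.21 ± 0.49 for Dlx1 and Dlx2, 1.20 ± 0.40 for Dlx3, 1.22 ± 0.55 for Dlx4 and 1.44 ± 0.45 for Nkx2-1, higher in K27M in 5 of 5 pairs for each (exact sign-flip test, p = 0.0625).

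Gsx2 had the weakest of these peaks. It gave 3.48 and 5.21 in Ctl and 10.7 and 10.8 in K27M brainstem-derived cultures. In the telencephalon it gave 4.31 and 3.41 in Ctl cultures 60 and 61 and 2.45, 5.97 and 5.42 in K27M cultures 59, 60 and 61, with no peak in Ctl culture 59. K27M was the higher in each of the 4 pairs that could be formed, by 0.95 ± 0.50 on the log2 scale (exact sign-flip test, p = 0.125, the smallest possible for 4 pairs). In all, 7 of the 7 members with a peak in every library had a higher fold enrichment in K27M in 5 of 5 pairs, as did 42.2% of the 1272 genes with a peak in every library. The median log2 difference was 1.22 over the 7 members and 0.33 over those 1272 genes, which were not matched to the members for peak strength. The highest fold enrichment of any peak was also higher in K27M in every pair. It was 10.9 and 11.7 in Ctl and 31.3 and 38.7 in K27M brainstem-derived cultures 59 and 61. In telencephalon-derived cultures 59, 60 and 61 it was 7.48, 21.2 and 11.9 in Ctl and 11.7, 30.9 and 33.7 in K27M. The 7 members do not count as separate measurements, since Dlx1 with Dlx2 and Dlx5 with Dlx6 each share one.

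Ranked within their own library, the peaks of Dlx1 and Dlx2, of Dlx5 and Dlx6 and of Nkx2-1 stood near the top in both genotypes. The Gsx2 peak stood at percentile 29.4 and 84.7 in K27M telencephalon-derived cultures 59 and 61. In the other libraries with a Gsx2 peak it stood at 93.4 or higher. The fold enrichment of the Dlx5 and Dlx6 peak stood at percentile 99.4 or higher among all H3K27me3 peaks of each of the 10 libraries, and the mean difference between genotypes was 0.09 percentile points (exact sign-flip test, p = 0.375). For Nkx2-1 the percentile was 99.2 or higher in every library (mean difference 0.05 points, p = 0.875, exact sign-flip test). The peak of Dlx1 and Dlx2 lay between percentiles 95.5 and 100 and the mean difference was −0.30 points (exact sign-flip test, p = 0.4375). These percentiles lay close to their limit of 100, so the tests could hardly show a rise in K27M. They were also taken over lists of different length, so equal percentiles are not equal ranks.

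**Figure D2:**
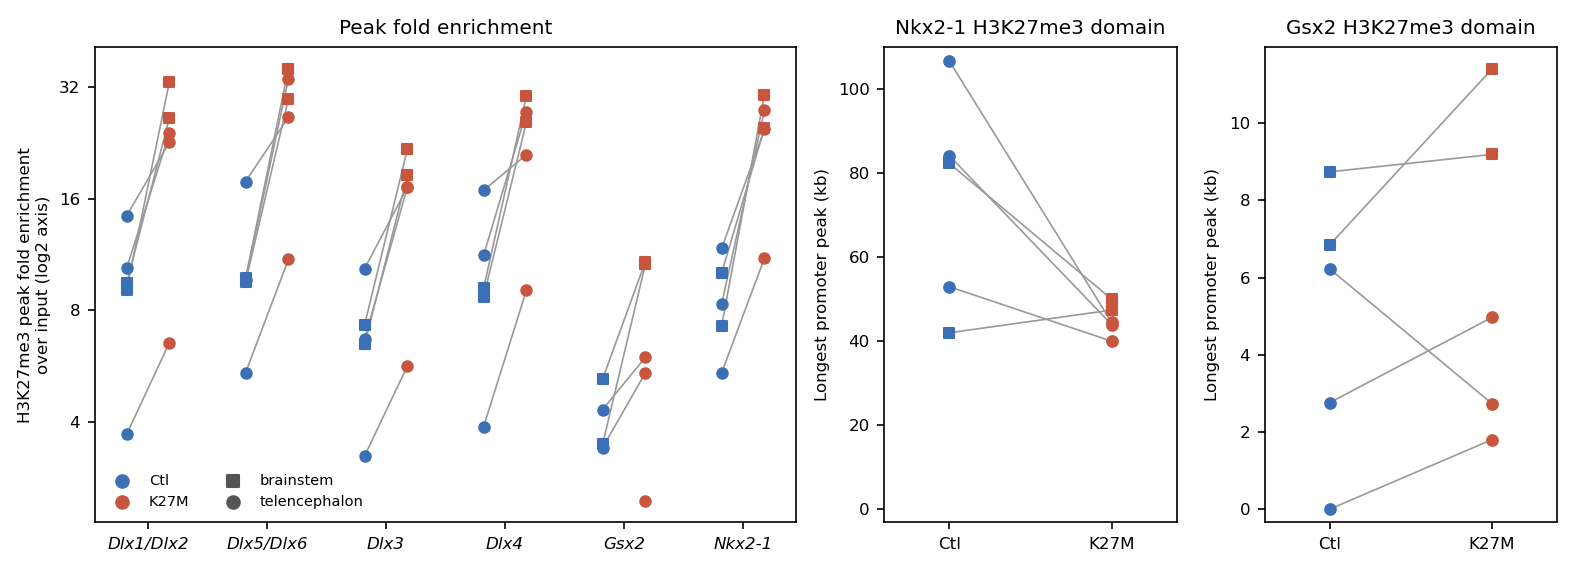
H3K27me3 fold enrichment over input (log2 axis) at the peaks of Dlx1 and Dlx2, Dlx5 and Dlx6, Dlx3, Dlx4, Gsx2 and Nkx2-1, and length in kb of the longest promoter peak of Nkx2-1 and Gsx2, in matched Ctl and K27M cultures joined by lines. For the Dlx genes and Nkx2-1 the K27M fold enrichment is higher in 5 of 5 pairs, while the Nkx2-1 peak is shorter in 4 of 5.

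The extent of the domains was measured as the length of the longest peak at a promoter. The domain over Dlx1 and Dlx2 was 35.2 and 34.5 kb in Ctl and 36.3 and 33.6 kb in K27M brainstem-derived cultures, and 22.2, 35.6 and 33.4 kb in Ctl and 23.5, 31.6 and 30.6 kb in K27M telencephalon-derived cultures. It was shortest in telencephalon-derived culture 59 of both genotypes, and in every library it also reached Metap1d, a methionine aminopeptidase gene whose end lies 2.92 kb from Dlx1. The domain over Dlx5 and Dlx6 held both genes in every library and ranged from 39.0 to 55.1 kb over the 10 libraries, with the longest value in Ctl brainstem-derived culture 61.

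The domain over Nkx2-1 was longer than that over Dlx5 and Dlx6 in 8 of 10 libraries, all but Ctl brainstem-derived culture 59 and K27M telencephalon-derived culture 59. It spanned 41.9 and 82.3 kb in Ctl and 47.3 and 49.9 kb in K27M brainstem-derived cultures 59 and 61, and 52.9, 84.1 and 106.6 kb in Ctl and 39.9, 43.9 and 44.4 kb in K27M telencephalon-derived cultures 59, 60 and 61. All 3 telencephalon-derived K27M values lay below all 3 Ctl values, whereas the brainstem-derived values overlapped. The domain was shorter in K27M in 4 of 5 pairs and longer in brainstem-derived culture 59, with a mean difference of −28.5 ± 25.9 kb (exact sign-flip test, p = 0.125). A single continuous peak can be broken by a stretch below the threshold of the caller, and the Ctl libraries of telencephalon-derived cultures 60 and 61, with the longest domains, also held 49615 and 64808 peaks. The part of peak number in domain length was not tested.

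Across the Dlx pairs the bases between the genes were also examined, since known enhancers of the forebrain lie between Dlx1 and Dlx2 and between Dlx5 and Dlx6. Dlx1 and Dlx2 stand 9426 bp apart on chromosome 2 (chr2:71528113-71533981 and chr2:71543408-71546754), with the antisense RNA gene Dlx1as overlapping Dlx1. Dlx6 and Dlx5 stand 9236 bp apart on chromosome 6 (chr6:6863334-6868568 and chr6:6877805-6882085), with Dlx6os1 and Dlx6os2 antisense to Dlx6. The bases between the genes were under H3K27me3 peaks over 100% of their length in all 10 libraries for both of these pairs.

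The pair of Dlx3 and Dlx4 on chromosome 11 (chr11:95120119-95125296 and chr11:95140447-95146263, 15150 bp apart, with Dlx4os antisense to Dlx4) differed in this respect. Between these genes H3K27me3 peaks covered 66.2% and 41.8% in Ctl and 41.3% and 39.8% in K27M brainstem-derived cultures 59 and 61. In telencephalon-derived cultures 59, 60 and 61 they covered 17.1%, 65.9% and 93.5% in Ctl and 17.5%, 46.2% and 42.7% in K27M. Coverage was thus partial in every library and lower in K27M in 4 of 5 pairs, and the exception was telencephalon-derived culture 59. Over the window that reaches 5000 bp beyond both genes the mean difference was −3983 bp (exact sign-flip test, p = 0.125).

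**Figure D3:**
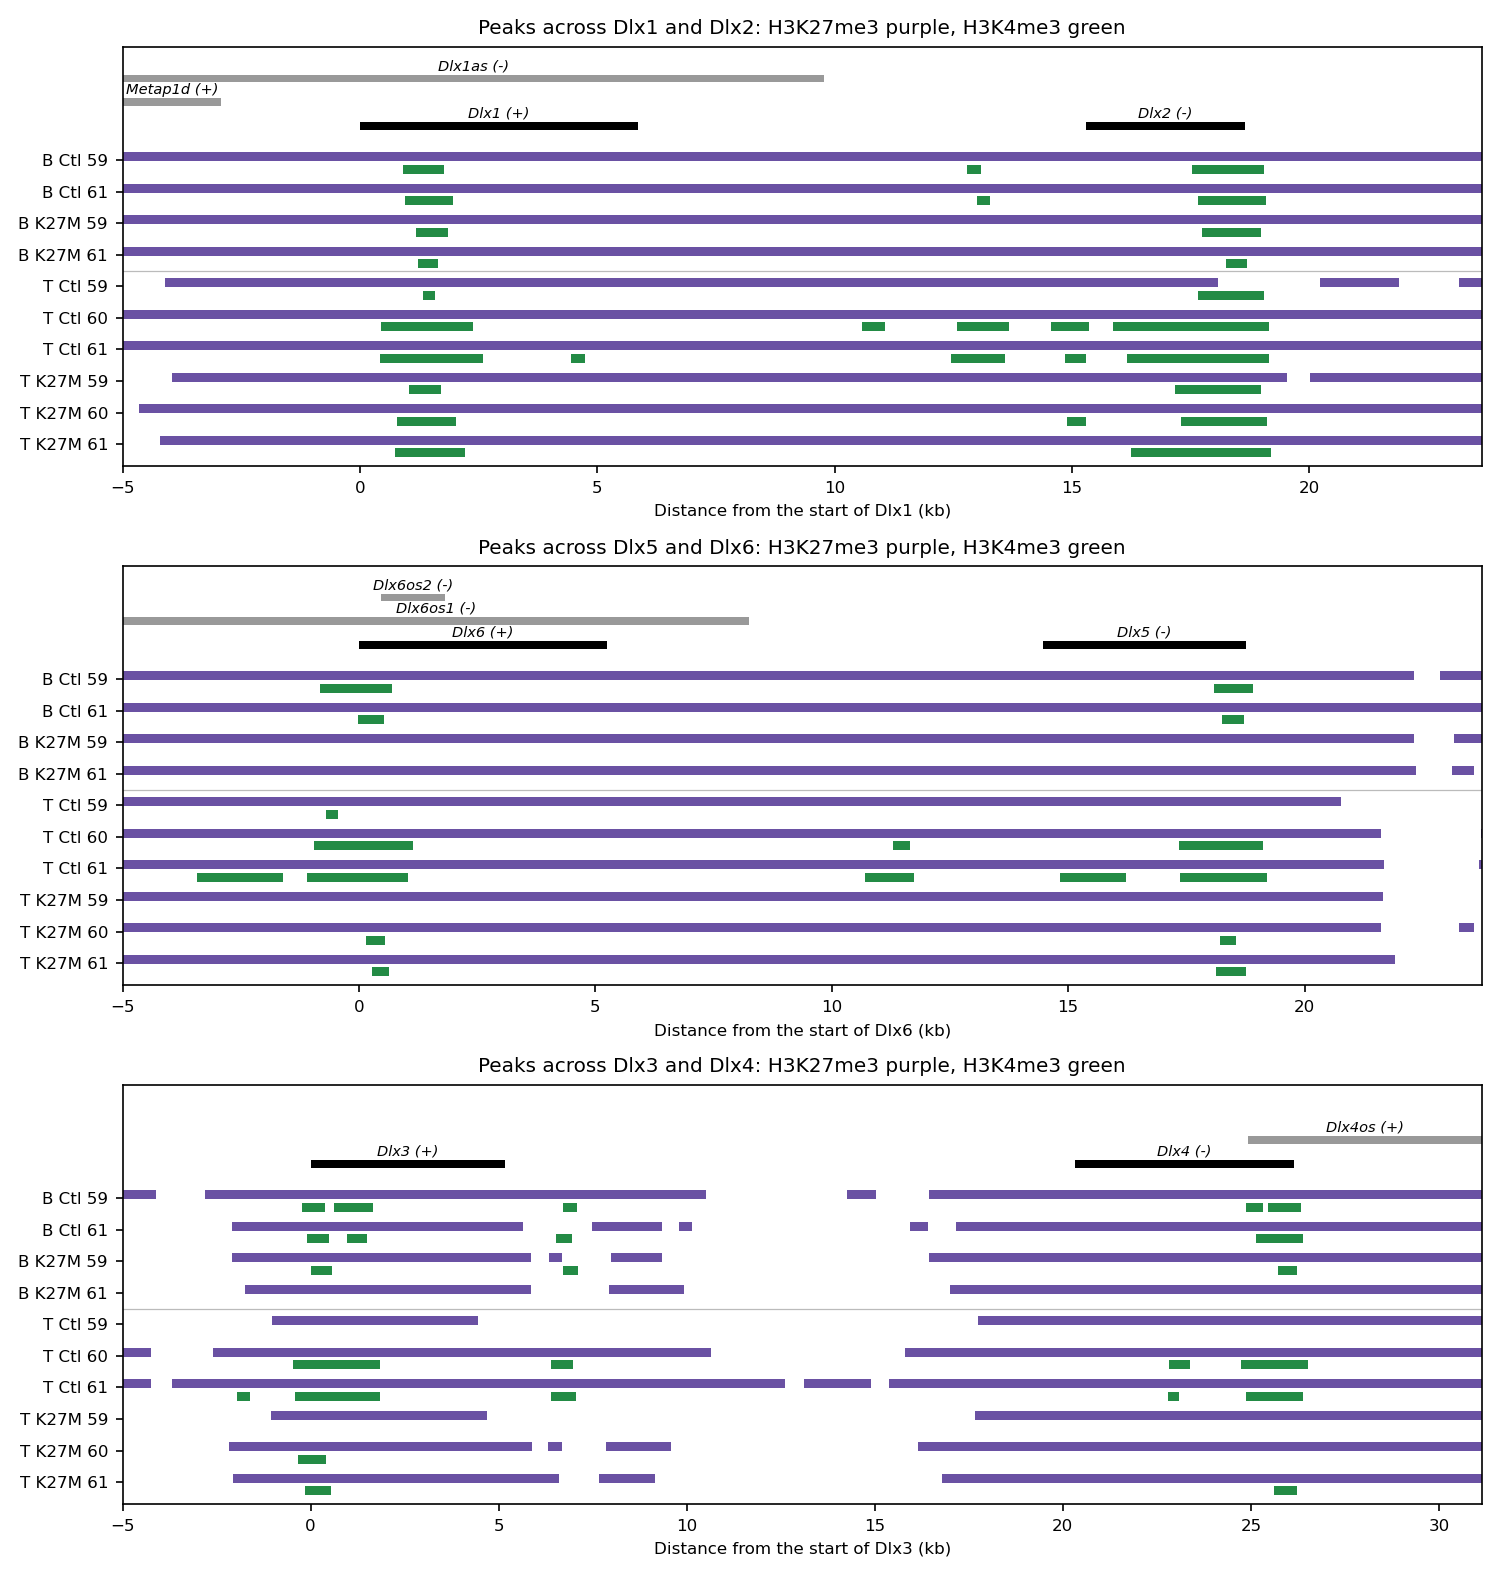
Peaks of H3K27me3 and H3K4me3 across the 3 Dlx pairs in each of the 10 libraries, against distance in kb from the start of Dlx1, Dlx6 or Dlx3, with gene bodies drawn to scale. H3K27me3 runs unbroken between Dlx1 and Dlx2 and between Dlx6 and Dlx5 in all libraries and is broken between Dlx3 and Dlx4, and H3K4me3 peaks are short and fewer in K27M.

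H3K4me3 peaks were present at 4 of the 9 members, Dlx1, Dlx2, Gsx1 and Gsx2, in all 10 libraries, as at 58.0% of protein-coding genes. At most of the Dlx genes their extent was smaller in K27M cultures. Dlx6 was the only member lower in all 5 pairs: promoter coverage was 44.4% and 15.9% in Ctl and 0 and 0 in K27M brainstem-derived cultures 59 and 61. In telencephalon-derived cultures 59, 60 and 61 it was 7.59%, 60.6% and 73.6% in Ctl and 0, 11.5% and 9.93% in K27M. The genotypes did not overlap in the brainstem, and in the telencephalon the Ctl value of culture 59 lay within the K27M range. The mean difference was −36.1 ± 23.6 points (SD, n = 5 pairs), and the two-sided exact sign-flip test gave p = 0.0625, which is the smallest p the design allows, so that no member could pass 0.05.

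Its neighbour Dlx5 was covered at 27.1% and 15.4% in Ctl and at 0 in both K27M brainstem-derived cultures, and at 0, 45.7% and 49.0% in Ctl and 0, 11.1% and 21.5% in K27M telencephalon-derived cultures. Dlx5 was lower in K27M in 4 pairs and at 0 in both libraries of telencephalon-derived culture 59 (mean difference −20.9 ± 13.6 points, p = 0.125, exact sign-flip test). A pair with equal values raises the smallest p that this test can give. It is 0.125 with 1 such pair, as at Dlx3, Dlx4 and Dlx5, and 0.5 with 3, as at Nkx2-1. Over the whole window of the Dlx5 and Dlx6 pair H3K4me3 peaks covered 2355 and 1016 bp in Ctl and 0 bp in both K27M brainstem-derived cultures, and 263, 4221 and 8259 bp in Ctl and 0, 733 and 993 bp in K27M telencephalon-derived cultures. The window was lower in K27M in 5 of 5 pairs, with a mean difference of −2877.6 bp (exact sign-flip test, p = 0.0625). With telencephalon-derived cultures 60 and 61 left out together, a choice made after the data were seen, the mean difference was −1211.3 bp for the window and −22.6 points for the Dlx6 promoter, lower in the 3 remaining pairs.

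Dlx4 was covered at 38.5% and 36.2% in Ctl and 14.4% and 0 in K27M brainstem-derived cultures, and at 0, 51.1% and 44.4% in Ctl and 0, 0 and 17.7% in K27M telencephalon-derived cultures. Dlx3 was covered at 33.2% and 20.9% in Ctl and 17.8% and 0 in K27M brainstem-derived cultures, and at 0, 48.9% and 59.0% in Ctl and 0, 25.3% and 22.8% in K27M telencephalon-derived cultures. Both genes were lower in K27M in every pair with a Ctl peak, and in the brainstem their genotype ranges did not overlap. The mean differences were −27.6 ± 18.7 points for Dlx4 and −19.2 ± 13.2 points for Dlx3 (exact sign-flip test, p = 0.125 for each).

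At Dlx1 and Dlx2, whose windows held the most CG dinucleotides of those shown, H3K4me3 peaks were found in all 10 libraries. Dlx1 was covered at 15.4% and 17.7% in Ctl and 11.7% and 7.55% in K27M brainstem-derived cultures, and at 4.61%, 34.1% and 38.2% in Ctl and 12.2%, 22.0% and 26.2% in K27M telencephalon-derived cultures. Dlx2 was covered at 39.7% and 37.7% in Ctl and 32.6% and 11.96% in K27M brainstem-derived cultures, and at 36.6%, 60.6% and 60.9% in Ctl and 47.7%, 47.6% and 61.9% in K27M telencephalon-derived cultures. Brainstem-derived K27M values were below the Ctl values at both genes, whereas telencephalon-derived culture 59 went the other way at both. Dlx1 was lower in 4 of 5 pairs (mean difference −6.08 ± 8.37 points, p = 0.1875, exact sign-flip test) and Dlx2 in 3 of 5 (−6.77 ± 14.0 points, p = 0.375, exact sign-flip test). The Dlx1 peaks lay downstream of the first annotated start of the gene, around the RefSeq start whose sequence is shown.

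Gsx2 was covered at 42.2% and 34.4% in Ctl and 33.6% and 26.5% in K27M brainstem-derived cultures, and at 39.2%, 52.1% and 54.3% in Ctl and 39.8%, 45.8% and 43.5% in K27M telencephalon-derived cultures. The values lay close together within each pair, and Gsx2 was lower in K27M in 4 of 5 pairs (mean difference −6.58 ± 4.35 points, p = 0.125, exact sign-flip test). Nkx2-1 had H3K4me3 peaks in Ctl telencephalon-derived cultures 60 and 61 only, at 37.2% and 35.8% of the promoter, and in no K27M and no brainstem-derived library (mean difference −14.6 ± 20.0 points, p = 0.5, exact sign-flip test). Each of these libraries had 2 peaks there, of which the longer began 216 and 225 bp downstream of the gene's first start, and none reached the sequence shown. Gsx1 was covered at 100% in all 10 libraries by a peak of 4.96 to 6.58 kb.

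**Figure D4:**
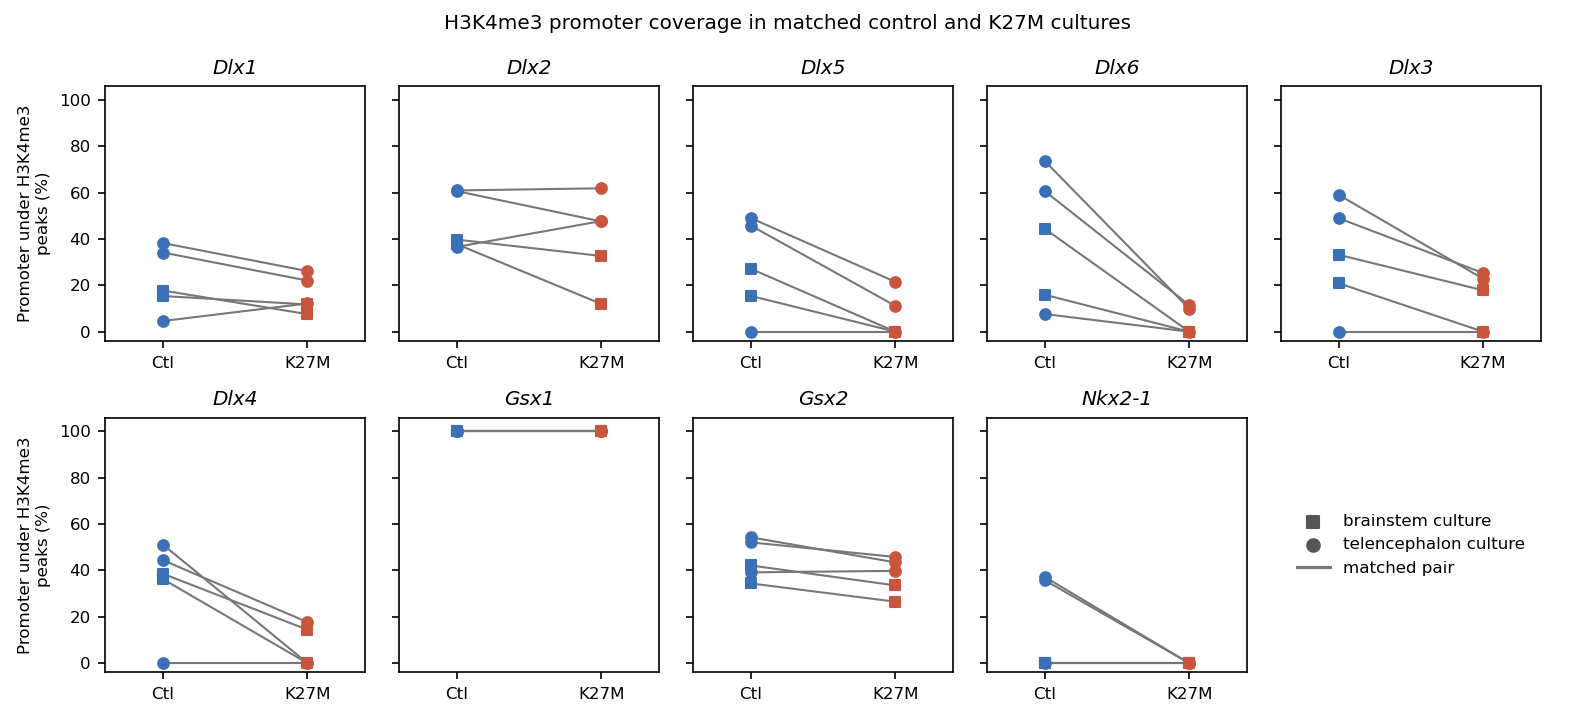
H3K4me3 promoter coverage in percent for each of the 9 genes, with matched Ctl and K27M cultures joined by lines. Colour shows genotype and marker shape shows tissue. Dlx6 is lower in K27M in 5 of 5 pairs, Dlx1, Dlx3, Dlx4, Dlx5 and Gsx2 in 4 of 5, and Gsx1 stays at 100% throughout.

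Altogether 6 of the 9 members (Dlx1, Dlx3, Dlx4, Dlx5, Dlx6 and Gsx2) had lower H3K4me3 coverage in K27M in at least 4 of 5 pairs, against 7.17% of the 14605 genes with an H3K4me3 peak in any library. Among the 3291 genes with a bivalent promoter in the controls of either tissue, which included 8 members, the share was 14.6%. Members in a pair share a locus and are not independent. The libraries themselves also differed in H3K4me3: at those 3291 genes the median coverage was 23.9% and 22.6% in Ctl and 26.4% and 18.9% in K27M brainstem-derived cultures, and 13.3%, 30.1% and 30.3% in Ctl and 16.97%, 24.9% and 26.0% in K27M telencephalon-derived cultures. In brainstem-derived culture 59 that median was thus higher in K27M, and the list of peaks longer (29291 against 25166), while all 6 Dlx genes and Gsx2 were lower there. In telencephalon-derived cultures 60 and 61 the median was lower in K27M, as were Dlx1, Dlx3, Dlx4, Dlx5, Dlx6, Gsx2 and Nkx2-1. The part of these library differences in the members' values was not tested. With these 2 cultures left out together, which was decided after the data were seen, 7 members were lower in at least 2 of the 3 remaining pairs, only Dlx6 in all 3, against 23.2% of the 14605 genes and 23.0% of the 3291.

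H3K4me3 also reached between the genes of a pair in some libraries. Between Dlx1 and Dlx2 peaks covered 2.99% and 2.91% in Ctl and 0 in both K27M brainstem-derived cultures, and 0, 24.6% and 16.9% in Ctl and 0, 4.15% and 0 in K27M telencephalon-derived cultures. Coverage was lower in K27M in 4 of 5 pairs and at 0 in both libraries of telencephalon-derived culture 59 (exact sign-flip test, p = 0.125). For 2 pairs the bases common to the peaks of 4 or 5 libraries are shown, from the GRCm38.p6 genome with CG in capitals, and were chosen after their values were seen.
Stretch between Dlx1 and Dlx2, chr2:71541118-71541188, plus strand: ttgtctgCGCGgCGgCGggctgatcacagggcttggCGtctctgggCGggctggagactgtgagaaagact
Stretch between Dlx3 and Dlx4, chr11:95126826-95127060, plus strand: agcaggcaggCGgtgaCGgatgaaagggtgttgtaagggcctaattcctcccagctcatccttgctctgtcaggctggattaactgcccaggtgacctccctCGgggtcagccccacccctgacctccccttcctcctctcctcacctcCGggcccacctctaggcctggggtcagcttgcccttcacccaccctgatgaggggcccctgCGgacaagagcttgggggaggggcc

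The stretch of 71 bp between Dlx1 and Dlx2 held 6 CG dinucleotides and lay under H3K4me3 peaks in 4 Ctl libraries (brainstem-derived cultures 59 and 61 and telencephalon-derived cultures 60 and 61) and in no K27M library. That of 235 bp between Dlx3 and Dlx4 held 5 and lay under peaks in the same 4 Ctl libraries and in K27M brainstem-derived culture 59. Both were outside annotated genes, and TAATTA was in neither. Between Dlx5 and Dlx6 peaks were found in Ctl telencephalon-derived cultures 60 and 61 alone.

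Promoter states were assigned from peaks shared by at least 2 cultures of a tissue and genotype, with the stringent and weak p-values of the study (1e-10 and 1e-06 for H3K4me3, 1e-08 and 1e-04 for H3K27me3). The study assigned states from control cultures only, given the broad loss of H3K27me3 in K27M, and for expressed genes. Here the rule was also applied to K27M cultures, and to genes without regard to expression. In brainstem-derived Ctl cultures 6 members were bivalent (Dlx1, Dlx2, Dlx3, Dlx4, Dlx6 and Gsx2), against 9.32% of protein-coding genes, and Dlx5 and Nkx2-1 had H3K27me3 only. Dlx5 did have an H3K4me3 peak in both of these cultures (27.1% and 15.4% of its promoter), but these did not pass the rule for shared peaks. Nkx2-1 had no H3K4me3 peak there. In telencephalon-derived Ctl cultures 8 were bivalent, against 14.5%, the exception being Gsx1. Gsx1 had H3K4me3 only in all 4 groups. In K27M cultures 3 members (Dlx1, Dlx2 and Gsx2) were bivalent in the brainstem and 6 in the telencephalon, where Dlx4 and Nkx2-1 had H3K27me3 only. The members that were bivalent in Ctl and not in K27M, Dlx3, Dlx4 and Dlx6 in the brainstem and Dlx4 and Nkx2-1 in the telencephalon, all kept shared H3K27me3 peaks and lacked shared H3K4me3 peaks. These H3K27me3 peaks were called against each library's own input and do not give the amount of the mark. Over all protein-coding genes 6.16% (brainstem) and 6.93% (telencephalon) were bivalent in K27M cultures.

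The larger number in the telencephalon rested on 2 of its 3 Ctl cultures. Without culture 60, without culture 61, or with cultures 59 and 61 in both tissues, 4 members were bivalent in the telencephalon, and Dlx3, Dlx4, Dlx5 and Nkx2-1 had H3K27me3 only. In the brainstem 6 or 7 members were bivalent in every alternative tried, and Dlx5 was the member whose state changed. States were compared between groups without a test.

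Brainstem- and telencephalon-derived cultures were then compared within each genotype. With 3 against 2 cultures the smallest two-sided p is 0.2, so no difference could pass 0.05. For H3K27me3 coverage Gsx2 was the 1 member whose tissues did not overlap: the mark covered 80.2% and 100% of its promoter in Ctl and 100% in both K27M brainstem-derived cultures, and 0, 64.5% and 61.9% in Ctl and 26.5%, 53.8% and 59.4% in K27M telencephalon-derived cultures. All telencephalon-derived values lay below all brainstem-derived values in both genotypes, with mean differences of −48.0 points in Ctl and −53.4 points in K27M (exact permutation test, p = 0.2 for each). Without telencephalon-derived culture 59 the differences were −26.9 points in Ctl and −43.4 in K27M. The Gsx2 peak was also shorter, at 6.84 and 8.74 kb in Ctl and 11.4 and 9.19 kb in K27M in the brainstem, and, in the telencephalon, 6.23 and 2.76 kb in Ctl cultures 60 and 61 and 1.80, 2.73 and 4.97 kb in K27M cultures.

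Gsx2 was 1 of the 8 members with an H3K27me3 peak in any Ctl library, and the other 7 overlapped between tissues, while 2.32% of the 7990 such genes were lower in every telencephalon-derived Ctl culture and 0.613% higher. For H3K4me3 none of the 9 members was lower (16.5% of the 14524 genes with a peak in any control) or higher (0.799%) in every telencephalon-derived Ctl culture. In K27M cultures 1 of 8 members, Gsx2, was lower in H3K27me3 coverage, and none was higher (1.51% of all such genes). That count is close to the 12.3% of the 3108 genes with a peak in any K27M culture that were lower. It therefore does not set the members apart. H3K4me3 coverage of Dlx1, Dlx2 and Gsx2 was higher in every telencephalon-derived than in every brainstem-derived K27M culture, as at 1.81% of the 14187 genes with a peak in any of them, by 10.47, 30.07 and 13.002 points on average (exact permutation test, p = 0.2 for each), and no member was lower (2.66%). The Dlx2 difference was 19.7 points without brainstem-derived culture 61. In the same cultures every telencephalon-derived H3K27me3 domain was shorter than every brainstem-derived one over Dlx1 and Dlx2 (mean difference −6.39 kb), over Dlx5 and Dlx6 (−2.81 kb) and over Nkx2-1 (−5.90 kb), whereas the Ctl domains overlapped (exact permutation test, p = 0.2 for each in K27M). In K27M cultures the same held for the longest peaks of Lhx6, Lhx8, Sp8, Six3, Isl1, Vax1 and Nkx6-2 of the ventral forebrain list described below. Of that list Ebf1 had the longer peaks in the telencephalon, and the other genes overlapped. The share over all genes was not counted. Whether the tissues differed more in K27M than in Ctl cultures was not tested. Gsx2 lies at chr5:75075601-75077893, with Chic2 30.8 kb before it and Pdgfra, the receptor gene used to select OPCs, 74.4 kb after it. Pdgfra had H3K4me3 and no H3K27me3 peak in all 10 libraries of each mark. Gsx1, on the same chromosome (chr5:147188696-147190947), lies between Polr1d (77.1 kb) and Pdx1 (79.0 kb).

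The other genes of the ventral forebrain programme were described with a list of 14 (Gad1, Gad2, Slc32a1, Lhx6, Lhx8, Sp8, Sp9, Six3, Isl1, Ebf1, Meis2, Vax1, Nkx6-2 and Shh). Of these, 13 had an H3K27me3 peak in all 5 Ctl cultures (9.09% of protein-coding genes). All 13 had one in all 5 K27M cultures (63.7% of genes with a peak in every Ctl culture). In 11 of the 13 the fold enrichment was higher in K27M in 5 of 5 pairs (42.2% of genes with a peak in every library). H3K4me3 coverage was lower in K27M in at least 4 of 5 pairs at 6 of 14 genes, namely Slc32a1 (the vesicular GABA transporter), Lhx6 and Lhx8 (medial ganglionic eminence factors), Sp9, Isl1 and Vax1. The share was 7.17% of genes with an H3K4me3 peak in any library and 14.6% of genes bivalent in the controls of either tissue. Lhx6, a target of Nkx2-1, was covered at 25.3% and 25.5% in Ctl and 12.2% and 0 in K27M brainstem-derived cultures, and at 0, 41.0% and 40.1% in Ctl and 0, 4.44% and 13.2% in K27M telencephalon-derived cultures. Like Dlx4, it was lower in 4 pairs and at 0 in both libraries of telencephalon-derived culture 59 (exact sign-flip test, p = 0.125, mean difference −20.4 ± 14.1 points). Of the 14 genes 9 were bivalent in brainstem-derived and 13 in telencephalon-derived Ctl cultures, and 4 and 11 in K27M cultures. Over protein-coding genes the shares were 9.32% and 14.5% in Ctl and 6.16% and 6.93% in K27M cultures.

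Gad1 and Gad2, which encode the enzymes of GABA synthesis, carried both marks in every library. Meis2, a homeobox factor, had H3K4me3 only in all 4 groups, as Gsx1 did, with an H3K27me3 peak in K27M brainstem-derived culture 61 alone (12.2% of its promoter).

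Genes with the most similar promoter coverage were sought by the mean absolute difference over the 20 libraries, in percentage points. Nearest to Nkx2-1 were Hoxd13 (0.16), Barhl1 (0.32) and Foxa2 (0.32), to Dlx5 Foxa1 (1.95) and Barhl2 (2.01), and to Dlx4 Lhx6 (2.48) and Barhl2 (2.84). Nearest to Dlx6 were Tfap2a (2.62), Vax1 (2.84) and Hmx3 (2.92), to Dlx1 Osr2 (2.78) and Hhex (2.89), and to Dlx3 Mixl1 (3.44), Notum (4.46) and Ppl (4.58). Gsx1 had the same values as 8 genes, which were AC134908.4, Basp1, Hist1h2af, Hist1h3g, Hnrnpa1, Nipbl, Yod1 and Zadh2, all of them at 0 for H3K27me3 and 100% for H3K4me3 in every library. Dlx2 and Gsx2 had less similar genes, with 6.31 for Trnp1, 6.42 for B830017H08Rik and 6.43 for Ncs1 (Dlx2), and 8.50 for Fbxo43, 9.62 for Rab20 and 11.5 for Lhx2 (Gsx2).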

How the data were processed

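ChIP-seq libraries of H3K27me3 and H3K4me3 from Ctl and K27M OPC cultures were used (20 libraries, grouped by their labels); inputs and signal tracks were not used here. The authors trimmed reads (Trim Galore 0.6.7, cutadapt 3.4), aligned them to mm10 (BWA 0.7.17-r1188), took out blacklisted regions and ran MACS2 2.2.7.1 on each library with its input as control, broad (cutoff 0.1) for H3K27me3 and narrow for H3K4me3. The deposited lists give a fold enrichment over input (a ratio, not scaled to the Drosophila spike-in), −log10 p and −log10 q, and a deposited display score that was not used. Without read counts, marks below the peak threshold were not measured.

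Peaks of a library were merged, and covered bases counted over promoters of GENCODE M21 (132663 distinct promoters; the study used a later release, on the same assembly) and over the Dlx pairs with 5000 bp on both sides. A gene had a peak with 1 bp of overlap. States followed the MSPC rule of the study's methods, rewritten here and extended to K27M cultures and to all genes. Functions were tested on simulated data. Python 3.11.15, numpy 2.4.6, pandas 2.3.3 and scipy 1.17.1 were used.

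K27M and Ctl were compared in pairs of the same tissue and culture number, which the study's methods treat as matched, by exact sign-flip tests over 32 arrangements, and tissues by exact permutation over 10. Deviations from the group means, across 21951 genes, correlated within pairs at 0.756, 0.44 and 0.548 (H3K4me3) and 0.59, 0.37 and −0.0752 (H3K27me3) in telencephalon-derived cultures 59, 60 and 61, and at 0.0617 and −0.111 in the brainstem, where both pairs share 1 value. P-values are not adjusted, since the members and lists were chosen with earlier results of these data known. All 9 members are named, with genes of the fixed list and, for each member, the 3 genes with the smallest mean difference in coverage; a few genes of these lists are not reported here. Alternatives were stricter peaks (−log10 q or fold enrichment of at least 3), equal numbers of peaks, other promoters and overlaps, no pairing and each culture left out.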

Additional observations from a re-analysis of the deposited data

How the results depend on the processing

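Over the alternatives 753 values kept their direction and call or, where not tested, stayed within the spread between replicates or within 1.5 times, 9 counts moved by over 1.5 times and 23 differences changed sign; no test could pass 0.05 with the pairing, so p-values say nothing of stability. Without the replicate block the H3K4me3 differences of Dlx6 (−36.1 points) and of the Dlx5 and Dlx6 window (−2877.6 bp) had p = 0.05 each (exact permutation within tissues), and none fell under 0.05 in either fit. Members with an H3K4me3 peak in every library of a group were 4 (K27M brainstem), 5 (Ctl telencephalon) and 4 (K27M telencephalon). With 500 bp required they were 2 in K27M brainstem and 3 in Ctl telencephalon, and with a fold enrichment of at least 3 they were 2 in Ctl telencephalon. With a culture left out they ranged from 5 to 9 in Ctl and 4 to 7 in K27M telencephalon, highest without culture 59. Bivalent members in the telencephalon (8) were 3 with a peak required in every Ctl culture, 4 with cultures 59 and 61, and 4 to 8 with a culture left out, lowest without culture 60 or 61. With a brainstem culture left out 1 remained, and its peaks alone set the state.

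The differences that changed sign were not called in any setting, and the cause was not tested. H3K27me3, K27M minus Ctl: Dlx2 −0.30 as a fold enrichment percentile, Dlx3 −2.07 to 0.24 points with a culture left out, and Gsx2 −1.14 points at a fold enrichment of at least 3, where its H3K4me3 difference was 1.25. Telencephalon minus brainstem, in points with a culture left out: Dlx3 −11.7 to 4.13 (H3K27me3, K27M), −2.55 to 26.9 (H3K4me3, Ctl) and −1.79 to 16.04 (H3K4me3, K27M), and Dlx4 −15.2 to 10.4 (H3K4me3, Ctl) and −8.54 to 5.90 (H3K4me3, K27M). With equal numbers of peaks the Dlx4 value in Ctl was 1.11, and at a fold enrichment of at least 3 the H3K4me3 value of Gsx2 in Ctl was −2.80. In the windows, H3K27me3 of Dlx1 and Dlx2 ranged over −287 to 601.5 bp with a culture left out, and that of Dlx5 and Dlx6 over −174.5 to 274.5 bp, with −120 bp at a −log10 q of at least 3 and −96.3 bp without telencephalon cultures 60 and 61, an alternative chosen after seeing the data. Between tissues, Dlx3 and Dlx4 ranged over −2958 to 4892 bp (H3K27me3) and −533.5 to 2070 bp (H3K4me3) with a culture left out.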
